A study of Homo sapiens with 12 samples.

Results

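The Janus kinases (JAK1, JAK2, JAK3 and TYK2) and the STAT factors (STAT2, STAT3, STAT5A, STAT5B and STAT6) were described here as 1 signalling family of 9 genes. Their members were the probe sets whose only gene symbol in the platform annotation is one of these names, with every such probe set of a gene kept. Probe sets annotated with several symbols were not matched. The rule found 25 of the 54613 non-control probe sets, which cover 8 of the 9 genes. These were 5 of JAK1, 3 of JAK2, 4 of JAK3, 1 of TYK2, 4 of STAT3, 1 of STAT5A, 5 of STAT5B and 2 of STAT6. STAT2 had no probe set under its symbol alone in this annotation and was not analysed here.

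The study measured RNA of L1236 and L428, both established cell lines of classical Hodgkin lymphoma, on 12 single-colour expression arrays. It asked what 5-Aza-dC (decitabine), an inhibitor of DNA methyltransferases, changes in each line. The groups were L1236 after 5-Aza-dC, untreated L1236, L428 after 5-Aza-dC and untreated L428, with 3 arrays each. Treated cells received 1 µM 5-Aza-dC for 24 h and then grew for 72 h without the drug, so no array was taken at the end of the exposure itself. All 4 groups grew in the same serum-supplemented medium, and the labels name no introduced gene or deletion. The labels call the experiment triplicate but do not say that the 3 samples came from separate cultures, so the p-values cover the spread among samples, which may be technical.

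In the JAK-STAT pathway, a cytokine brings its receptor chains together, and the JAKs bound to these chains phosphorylate each other and the receptor. STAT proteins dock there, are phosphorylated in turn, pair up and enter the nucleus, where they switch on target genes. Classical Hodgkin lymphoma cells are known for constant activity of this pathway, in part through extra copies of JAK2 on the short arm of chromosome 9 and loss of the inhibitor SOCS1. Activity lies in phosphorylation, which an RNA array does not measure, so the values below are RNA levels of the components.

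All values are log2 signals, so a difference of 1 is a doubling. Over all probe sets, the correlation between 2 arrays was 0.982 to 0.997 within a group, 0.962 to 0.987 across treatments of a line and 0.911 to 0.937 across lines. The source name of untreated L1236 replicate 1 describes treated L428 cells, while its other labels put it among untreated L1236. Its values correlated at 0.993 and 0.994 with the other untreated L1236 arrays and at no more than 0.928 with any L428 array. It was kept as untreated L1236, and calls that changed without it are given beside the results. Replicate 1 after 5-Aza-dC lay farthest from its group in both lines, with an SD around the group mean, taken over probe sets, of 0.350 in L1236 and 0.385 in L428, against 0.161 to 0.313 for the other arrays. Calls among the 25 probe sets that changed without the 4 arrays numbered 1 are given both ways. The 7 markers of Hodgkin Reed-Sternberg cells averaged 10.61 in L1236 after 5-Aza-dC, 9.61 in untreated L1236, 11.56 in L428 after 5-Aza-dC and 11.38 in untreated L428. One of them, TRAF1, lay at the floor of the scale in L1236 (2.07 after 5-Aza-dC and 2.1 untreated). The 5 measured B-cell genes, which such cells lack or hold low, averaged 5.83 and 5.78 in treated and untreated L1236. In treated and untreated L428 they averaged 3.36 and 3.42. POU2AF1 averaged 12.23 in L1236 after 5-Aza-dC and 13.41 untreated, against 2.39 in both L428 groups. CD79A, CD79B, CD22 and MS4A1 lay at 2.52 to 5.12 in untreated L1236 and 2.55 to 4.45 in untreated L428.

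The results turn on JAK2, STAT3 and STAT5A. Because 5-Aza-dC lowers DNA methylation at CpG sites, a promoter window of each is shown with its CpG sites in capitals. The windows run from 250 bases before to 50 after a transcription start and come from RefSeq on GRCh38.p14, read 5′ to 3′ on the gene's own strand. All 9 genes matched this table, with 16 windows among them. The JAK2 window lies at chr9:4984836-4985135 on the plus strand, the STAT3 window at chr17:42388393-42388692 on the minus strand and the STAT5A window at chr17:42288248-42288547 on the plus strand. Where a gene has several starts, the window with the most CpG sites is printed.
JAK2: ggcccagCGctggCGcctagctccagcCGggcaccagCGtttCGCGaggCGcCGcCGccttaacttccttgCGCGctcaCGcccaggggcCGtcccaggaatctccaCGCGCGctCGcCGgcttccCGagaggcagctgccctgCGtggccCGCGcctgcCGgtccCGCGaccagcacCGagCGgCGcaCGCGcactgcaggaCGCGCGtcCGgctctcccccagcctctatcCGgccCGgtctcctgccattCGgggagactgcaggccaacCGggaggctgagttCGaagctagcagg
STAT3: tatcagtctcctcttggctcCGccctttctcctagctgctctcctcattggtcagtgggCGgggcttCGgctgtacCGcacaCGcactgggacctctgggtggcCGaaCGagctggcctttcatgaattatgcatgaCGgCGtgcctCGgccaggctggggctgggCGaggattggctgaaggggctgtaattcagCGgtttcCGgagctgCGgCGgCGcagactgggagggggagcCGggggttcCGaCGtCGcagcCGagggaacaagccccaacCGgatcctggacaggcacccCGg
STAT5A: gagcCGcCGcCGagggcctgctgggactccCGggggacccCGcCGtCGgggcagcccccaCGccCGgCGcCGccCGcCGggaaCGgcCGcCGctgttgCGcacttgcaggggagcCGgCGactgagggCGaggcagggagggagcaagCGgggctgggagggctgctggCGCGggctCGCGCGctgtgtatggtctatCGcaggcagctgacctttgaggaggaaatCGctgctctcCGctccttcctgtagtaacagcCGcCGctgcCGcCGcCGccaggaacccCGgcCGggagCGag
JAK2 holds 39 CpG sites in this window, STAT3 holds 23 and STAT5A holds 37, against a median of 14 over all 35116 windows. The other 2 STAT5A windows hold 3 and 5 CpG sites, and the other JAK2 windows hold 11, 28 and 14. The median takes every window of every gene, so it is not a like measure for windows chosen as the richest of a gene. At their richest windows the 9 genes ranged from 12 sites in STAT6 to 55 in STAT5B. The window was searched on both strands for the STAT dimer motif TTCNNNGAA and for the core of the interferon-stimulated response element (GAAA, any 2 bases, GAAA). None of the 16 windows holds either, against 7.66% and 3.57% of all windows. STAT5B, STAT5A and STAT3 follow one another on chromosome 17 with no other gene of the RefSeq table starting between them. No methylation was measured, so the promoters were not compared between groups.

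In L1236, STAT3 and STAT5A rose after 5-Aza-dC, and no JAK was called. Of the 25 probe sets, 4 were called higher and none lower at an adjusted p under 0.05 in limma's test over all probe sets. The 4 were 3 of STAT3 and the 1 of STAT5A. Over all probe sets 4.58% were called higher, 4.44% lower and 9.02% in either direction. At an unadjusted p under 0.05 the 25 had 12, against 24.4% of all probe sets. Their median difference was 0.11, against -0.03 over all probe sets.

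STAT3 carries signals of interleukin 6 and interleukin 10 family cytokines and is active in Hodgkin cells. Its probe set 208991_at read 11.16, 11.51 and 11.50 in L1236 after 5-Aza-dC, against 10.40, 10.10 and 9.96 in untreated L1236. Every treated array lay above every untreated one, and the difference was 1.24 ± 0.13 (SE, n = 3 each; adjusted p = 7.18e-04), a 2.36-fold rise. Probe set 208992_s_at read 10.58, 11.11 and 11.19 after 5-Aza-dC, against 9.68, 9.42 and 9.29 in untreated L1236. Its groups were also apart, with a difference of 1.5 ± 0.19 and a 2.82-fold rise (adjusted p = 0.00219). Probe set 225289_at read 8.92, 9.13 and 8.88 after 5-Aza-dC, against 8.42, 8.31 and 7.97 in untreated L1236. It rose by 0.75 ± 0.14 (adjusted p = 0.0125) with no overlap between the groups. The call on 225289_at was lost without treated L1236 replicate 2 (adjusted p = 0.0541) and with only the 6 L1236 arrays in the fit (0.0608). The fourth STAT3 probe set, 243213_at, lay near the floor at 3.65 to 4.97 over the 12 arrays and was not called (0.23 ± 0.23, adjusted p = 0.484). Without the array of conflicting label the 3 STAT3 differences in L1236 were 1.36, 1.60 and 0.84, all still called, and no other L1236 call among the 25 changed.

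STAT5A and STAT5B are closely related factors downstream of interleukin 2, interleukin 3 and growth factor receptors. STAT5A read 9.39, 10.69 and 10.73 in L1236 after 5-Aza-dC, against 8.20, 8.08 and 7.62 in untreated L1236. All treated arrays lay above the untreated ones, although treated replicate 1 was more than 1 log2 unit below the other treated arrays. STAT5A rose by 2.30 ± 0.39 (95% interval 1.43 to 3.18, adjusted p = 0.00754), a 4.94-fold change and the largest among the 25 probe sets in this line. The difference was 2.42 (adjusted p = 0.0182) without the array of conflicting label, and the call was lost with only the 6 L1236 arrays in the fit (adjusted p = 0.0569). A single probe set stands for STAT5A, so no second one could be set beside it.

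All 5 STAT5B probe sets had every treated L1236 array above every untreated one, yet none was called. Their differences ran from 0.41 to 1.19, with adjusted p from 0.0573 to 0.479. Probe set 212550_at read 7.87, 8.62 and 8.44 in L1236 after 5-Aza-dC, against 7.37, 6.97 and 7.0 in untreated L1236, and its difference was 1.19 ± 0.45 (95% interval 0.17 to 2.22, adjusted p = 0.15). Probe set 205026_at read 6.74, 7.66 and 7.42 after 5-Aza-dC, against 6.59, 6.33 and 6.33 in untreated L1236 (0.86 ± 0.37, adjusted p = 0.200). In both, treated replicate 1 was the lowest treated array. Groups apart in the higher direction occurred in 10.3% of all probe sets and in 10 of the 25. Without the 4 arrays numbered 1, 4 of the 5 STAT5B probe sets were called, with rises of 0.58 to 1.54 (adjusted p = 0.00169 to 0.0126), the one at 1555086_at (0.78) among values at the floor.

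STAT6, the factor of interleukin 4 and 13 signalling, was not called in L1236. Its probe set 201331_s_at read 11.36, 11.19 and 11.56 after 5-Aza-dC, against 11.14, 11.42 and 11.32 in untreated L1236, and the groups overlapped. The difference was 0.07 (95% interval -0.29 to 0.44). The second, 201332_s_at, differed by 0.30 (95% interval -0.42 to 1.02).

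**Figure D1:**
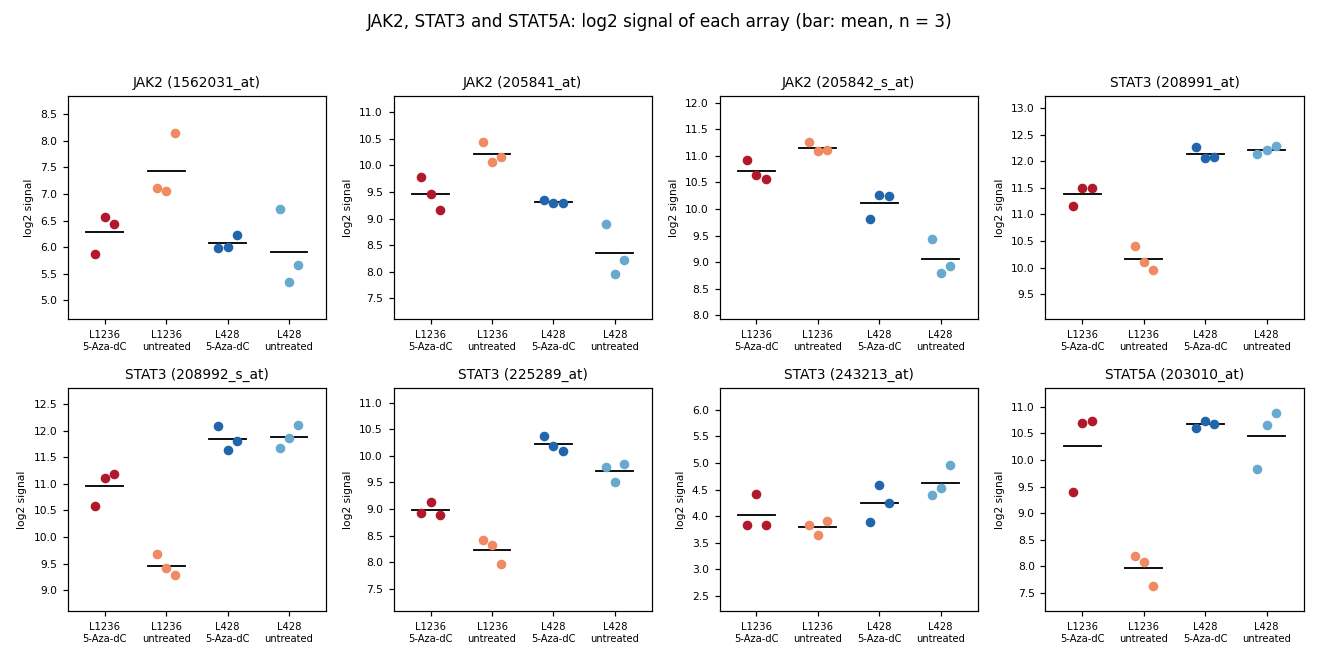
Log2 signal of each array (points) and the group mean (bar) for the 8 probe sets of JAK2, STAT3 and STAT5A, with a panel for each probe set and its own vertical range. STAT5A read 9.39 to 10.73 in L1236 after 5-Aza-dC and 7.62 to 8.20 in untreated L1236, while both L428 groups lay at 9.83 to 10.88.

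The kinases did not pass the test in L1236. JAK2, which serves receptors of growth factors and interferon gamma, read 10.92, 10.64 and 10.56 at probe set 205842_s_at after 5-Aza-dC, against 11.26, 11.09 and 11.11 in untreated L1236. Every treated array lay below the untreated ones, with a difference of -0.45 ± 0.18 (adjusted p = 0.185). Probe set 205841_at read 9.78, 9.46 and 9.17 after 5-Aza-dC, against 10.45, 10.06 and 10.15 in untreated L1236 (-0.75 ± 0.24, adjusted p = 0.0892). The third, 1562031_at, read 5.87, 6.57 and 6.44 after 5-Aza-dC, against 7.11, 7.06 and 8.14 in untreated L1236 (-1.14 ± 0.40, adjusted p = 0.122). So all 3 JAK2 probe sets lay lower without a call. Groups apart in the lower direction occurred in 48% of all probe sets in this line. Leaving out the 4 arrays numbered 1, 205842_s_at (-0.50, adjusted p = 0.00311) and 205841_at (-0.79, adjusted p = 0.0112) were called lower.

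JAK1, the partner of many interleukin and interferon receptors, differed at its brightest probe set 201648_at by 0.20 ± 0.08 in L1236 (adjusted p = 0.184), with 11.10, 11.14 and 10.99 after 5-Aza-dC and 10.95, 10.83 and 10.85 untreated. The JAK1 probe sets 1552610_a_at (0.11 ± 0.12, adjusted p = 0.499) and 1552611_a_at (-0.22 ± 0.22, adjusted p = 0.506) had overlapping groups, the second with the opposite sign. JAK3, which binds the common gamma chain, had 1 probe set above the floor. That probe set, 227677_at, read 8.39, 8.16 and 8.37 after 5-Aza-dC, against 8.64, 8.65 and 8.53 in untreated L1236, lower on every array without a call (-0.30 ± 0.20, adjusted p = 0.335). TYK2, a kinase of interferon and interleukin 12 receptors, read 9.62, 9.68 and 9.99 after 5-Aza-dC, against 9.65, 9.83 and 9.63 in untreated L1236, and its groups overlapped (0.06, 95% interval -0.35 to 0.47).

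A total of 6 probe sets stayed under 4 on all 12 arrays, at 2.29 to 3.46. These were JAK1 239695_at and 240613_at, JAK3 207187_at, 211108_s_at and 211109_at, and STAT5B 1555086_at. Values there lie at the floor of the scale, so a small difference among them cannot be read as a level. No detection calls were used here. The other 19 probe sets still cover all 8 genes.

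Leaving out the 4 arrays numbered 1 raised the L1236 calls to 10 of the 25 (8 higher and 2 lower), while 23.3% of all probe sets were then called. Another centring changed the balance of all calls in this line: 50.8% of calls were higher as deposited, and 24.6% after centring each array on its median. The 25 probe sets then had 7 calls, 5 higher and 2 lower. Those gained were JAK1 240613_at (-0.05), JAK3 211109_at (-0.06) and STAT5B 1555086_at (0.53), all at the floor. Markers of stromal and epithelial cells also differed in L1236, with a mean over 5 genes of 7.21 after 5-Aza-dC and 5.37 in untreated L1236, against 4.63 and 4.56 in L428. Of these markers 3 of 5 were called higher in L1236 and none in L428. EPCAM averaged 8.20 after 5-Aza-dC and 2.83 in untreated L1236, COL1A1 10.52 and 7.66, and KRT19 4.36 and 2.33. PECAM1 (10.54 and 11.56) and COL1A2 at the floor (2.44 and 2.46) were not called. Of 6 T and NK cell markers CD3D was called higher in L1236 (6.56 after 5-Aza-dC and 4.13 untreated) and CD2 in L428 (4.46 and 2.75), and the mean of the list was 3.36 and 2.75 in L1236 and 3.53 and 2.95 in L428. Of 5 myeloid markers ITGAM was called higher in L1236 (5.60 and 3.97), with a list mean of 3.55 and 3.13 in L1236 and 3.25 and 3.05 in L428. The part of these markers in the results was not tested. In bulk RNA, a change in how many cells hold a transcript and a change in its amount per cell cannot be told apart.

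In L428, 1 of the 3 JAK2 probe sets was called higher after 5-Aza-dC, and no STAT was called. Of the 25 probe sets 1 was called higher and none lower, against 1.82% higher, 1.2% lower and 3.02% in either direction over all probe sets. At an unadjusted p under 0.05 there were 7, against 16.2% of all probe sets. Groups apart in the higher direction occurred in 3 of the 25 and in 6.41% of all probe sets. In the lower direction they occurred in 3 of the 25 and in 9.81% of all. The median difference was -0.09, against -0.02 over all probe sets.

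The called probe set, JAK2 205842_s_at, read 9.81, 10.26 and 10.25 in L428 after 5-Aza-dC, against 9.44, 8.79 and 8.94 in untreated L428. All treated arrays lay above all untreated ones. The rise was 1.05 ± 0.18 (95% interval 0.63 to 1.47, adjusted p = 0.0202), or 2.07-fold. The call was lost in 4 of the 12 fits that left out 1 array, namely without untreated L428 replicate 2 (adjusted p = 0.0647) or 3 (0.0682) and without treated L428 replicate 2 (0.0869) or 3 (0.0921), and with only the 6 L428 arrays in the fit (0.193). Probe set 205841_at read 9.35, 9.30 and 9.30 after 5-Aza-dC, against 8.89, 7.96 and 8.22 in untreated L428. Its groups were also apart (0.96 ± 0.24), with an adjusted p of 0.0731, and of 0.0309 with the replicate number as a block. The third JAK2 probe set, 1562031_at, read 5.98, 6.0 and 6.22 after 5-Aza-dC, against 6.72, 5.34 and 5.66 in untreated L428, and its groups overlapped (0.16 ± 0.40, adjusted p = 0.824). The 3 JAK2 probe sets therefore did not all separate the groups.

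The other kinases were not called in L428. JAK1 201648_at read 10.24, 9.90 and 10.07 after 5-Aza-dC, against 10.47, 10.30 and 10.37 in untreated L428, below on every array (-0.31 ± 0.08, adjusted p = 0.103). JAK1 1552610_a_at read 8.77, 8.39 and 8.61 after 5-Aza-dC, against 8.79, 8.91 and 8.94 in untreated L428 (-0.29 ± 0.12, adjusted p = 0.253). Both JAK1 probe sets were called lower without the 4 arrays numbered 1, at -0.35 (adjusted p = 0.0391) and -0.42 (0.0280). The remaining JAK1 probe set above the floor, 1552611_a_at, ran the other way with overlapping groups (0.43 ± 0.22, adjusted p = 0.395). JAK3 227677_at read 7.52, 7.06 and 7.07 after 5-Aza-dC, against 6.65, 6.94 and 7.44 in untreated L428, with overlapping groups. TYK2 read 10.52, 9.84 and 9.93 after 5-Aza-dC, against 10.23, 10.23 and 10.47 in untreated L428, with overlap as well.

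STAT3 in L428 was high in both groups. Probe set 208991_at read 12.27, 12.05 and 12.09 after 5-Aza-dC, against 12.13, 12.21 and 12.29 in untreated L428, and the groups overlapped (-0.08, 95% interval -0.37 to 0.22). Probe set 208992_s_at read 12.09, 11.64 and 11.80 after 5-Aza-dC, against 11.68, 11.87 and 12.11 in untreated L428 (-0.04, 95% interval -0.48 to 0.40). These intervals exclude a doubling in L428. Probe set 225289_at was apart, with 10.38, 10.18 and 10.09 after 5-Aza-dC and 9.79, 9.51 and 9.84 untreated, but was not called (0.50 ± 0.14, adjusted p = 0.105).

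STAT5A read 10.59, 10.74 and 10.68 in L428 after 5-Aza-dC, against 9.83, 10.65 and 10.88 in untreated L428. The untreated arrays spanned the treated ones, and the difference of 0.22 had a 95% interval of -0.66 to 1.1. STAT5B in L428 followed the array number more than the group. Its probe set 212549_at read 9.43, 7.74 and 7.79 after 5-Aza-dC, against 9.33, 8.26 and 8.42 in untreated L428, so replicate 1 was the highest array of both groups. The same held for 205026_at, with 7.68, 6.40 and 6.39 after 5-Aza-dC and 7.35, 6.67 and 6.91 untreated, and for 212550_at, with 8.18, 6.31 and 6.89 after 5-Aza-dC and 8.0, 7.05 and 7.53 untreated. The cause was not tested. Probe set 1555088_x_at read 6.35, 6.32 and 6.54 after 5-Aza-dC, against 6.33, 6.90 and 6.81 in untreated L428, without that order. STAT6 201331_s_at read 10.93, 10.52 and 10.48 after 5-Aza-dC, against 10.71, 11.11 and 11.13 in untreated L428 (-0.34 ± 0.16, adjusted p = 0.358). STAT6 201332_s_at read 7.58, 7.05 and 7.10 after 5-Aza-dC, against 7.51, 8.06 and 8.32 in untreated L428 (-0.72 ± 0.32, adjusted p = 0.307). Both STAT6 probe sets had overlapping groups. When the 4 arrays numbered 1 were left out, 6 of the 25 were called in L428 (2 higher, both JAK2, and 4 lower, in JAK1, STAT5B and STAT6), while 18.2% of all probe sets were called. Newly called beside JAK1 were JAK2 205841_at (1.21, adjusted p = 0.00395), STAT5B 1555088_x_at (-0.43, 0.0249) and STAT6 201331_s_at (-0.61, 0.0304).

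**Figure D2:**
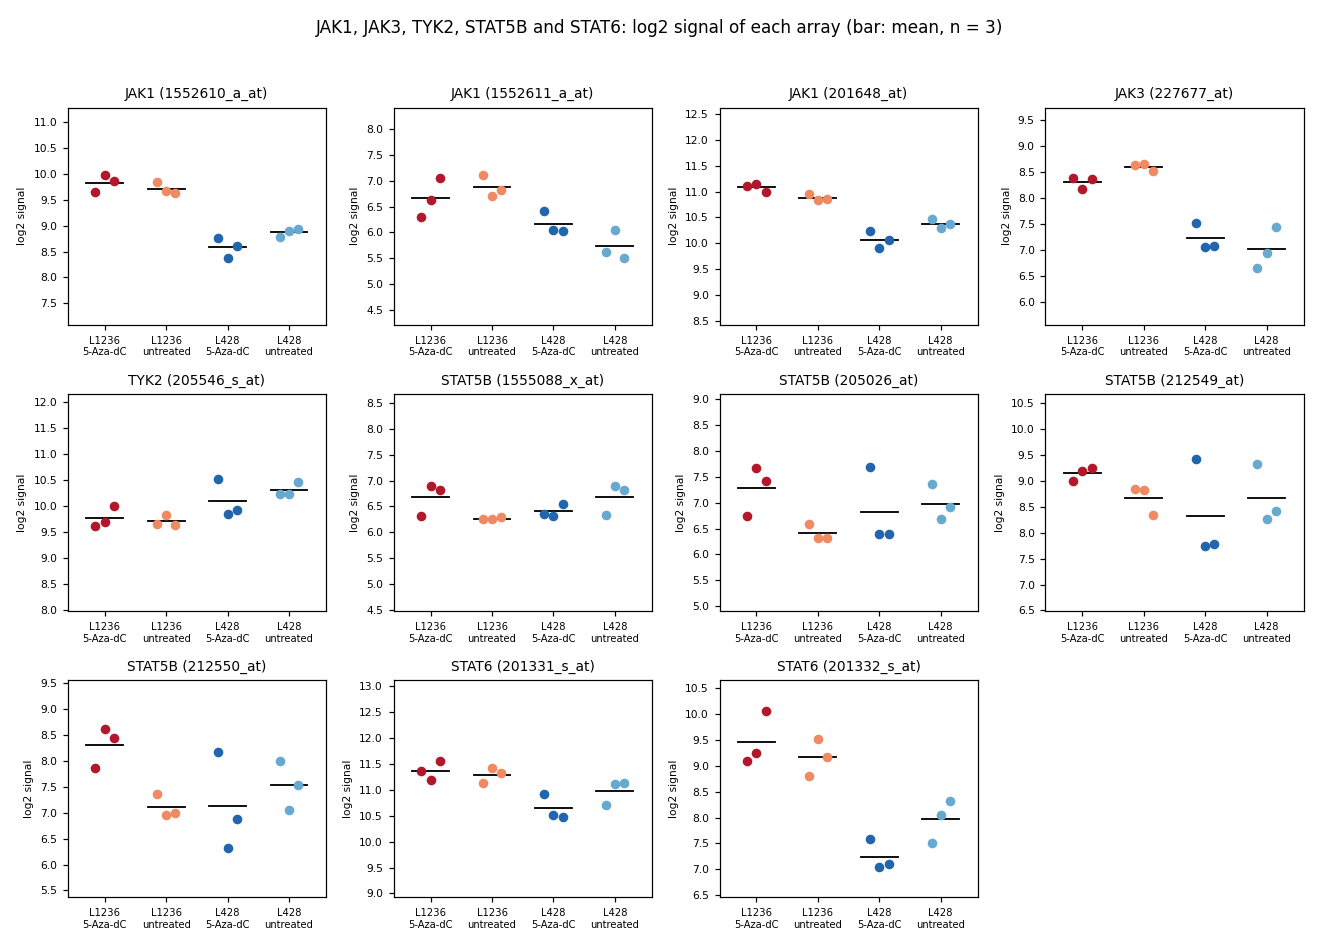
Log2 signal of each array (points) and the group mean (bar) for the 11 probe sets of JAK1, JAK3, TYK2, STAT5B and STAT6 that were above the floor, with a panel for each and its own vertical range. Replicate 1 is the leftmost point of each group, and in L428 it is the highest point of STAT5B 212549_at, at 9.43 after 5-Aza-dC and 9.33 untreated.

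The responses of the lines were then set against each other by the interaction term, the L1236 response minus the L428 response. JAK2 and STAT3 differed between the lines, in opposite directions. Of the 25 probe sets 4 were called, 2 of STAT3 higher in L1236 and 2 of JAK2 lower, against 2.57% of all probe sets called (1.42% higher and 1.15% lower). At an unadjusted p under 0.05 there were 13, against 13.1% of all probe sets. STAT3 208991_at differed by 1.31 ± 0.18 (adjusted p = 0.00817) and was called in all 22 alternative fits run for it. STAT3 208992_s_at differed by 1.54 ± 0.27 (adjusted p = 0.0246). That call was lost in 8 of the 12 fits without 1 array (adjusted p up to 0.0690) and with the replicate block (0.0603). STAT3 225289_at, with a positive difference in both lines that was called in L1236, differed by 0.24 ± 0.20 (95% interval -0.21 to 0.69).

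JAK2 205842_s_at differed by -1.49 ± 0.26 (adjusted p = 0.0226) and JAK2 205841_at by -1.71 ± 0.33 (adjusted p = 0.0350). Both calls were lost in 9 of the 12 fits without 1 array, with adjusted p up to 0.0651 for 205842_s_at and 0.0887 for 205841_at. The array of conflicting label was among those 9 (0.0501 and 0.0721 without it). Leaving an array out also leaves fewer residual degrees of freedom. JAK2 1562031_at differed the same way without a call (-1.31 ± 0.57, adjusted p = 0.371).

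STAT5A had the largest interaction estimate of the 25 probe sets, 2.08 ± 0.55, and was not called (95% interval 0.85 to 3.32, adjusted p = 0.101). Without treated L1236 replicate 1 its adjusted p was 0.00875, and without the 4 arrays numbered 1 the difference was 2.92 (adjusted p = 0.00251). In that last fit 12 of the 25 probe sets were called, while 14.3% of all probe sets were called. The 4 STAT5B probe sets above the floor were among them (1.0 to 2.23), as were STAT5B 1555086_at at the floor and JAK1 201648_at (0.58, adjusted p = 0.0302) and 1552610_a_at (0.70, adjusted p = 0.0224). JAK1 201648_at differed by 0.51 ± 0.12 with all arrays (adjusted p = 0.0669) and 1552610_a_at by 0.40 ± 0.16 (0.323). The third JAK1 probe set above the floor, 1552611_a_at, went the other way without a call (-0.65 ± 0.31, adjusted p = 0.440).

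**Figure D3:**
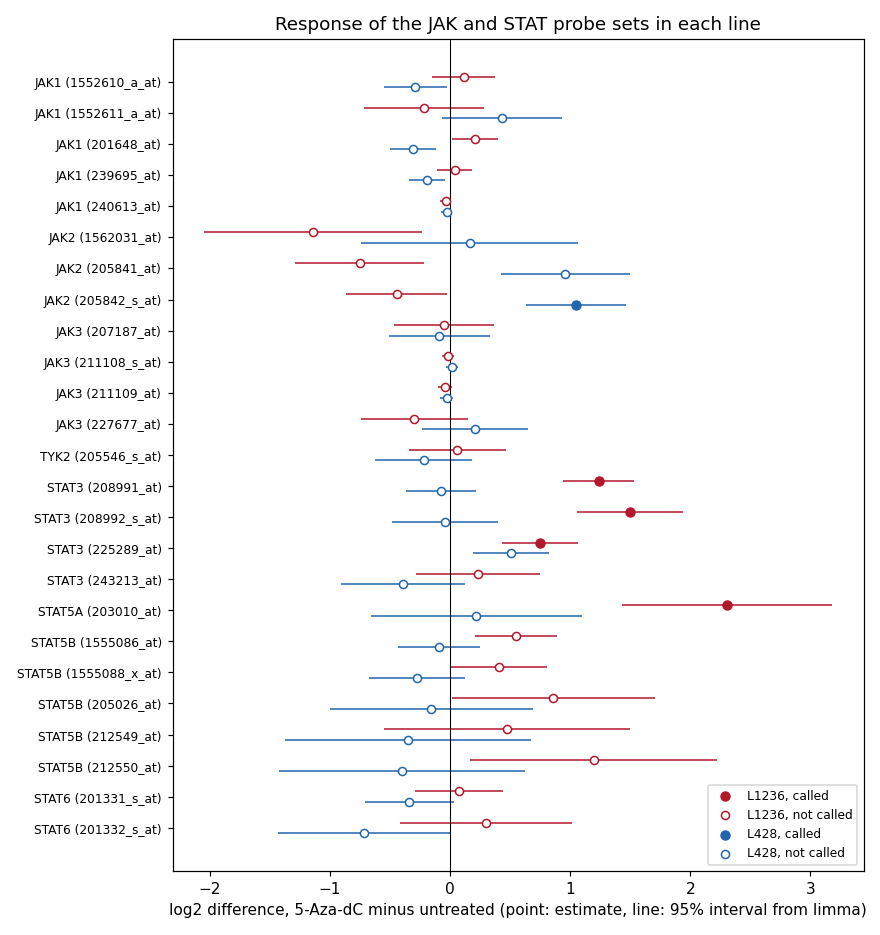
Log2 difference of 5-Aza-dC minus untreated in L1236 (red) and L428 (blue) for all 25 probe sets, with 95% intervals from limma. Filled points passed an adjusted p under 0.05: 3 of STAT3 (0.75 to 1.5) and STAT5A (2.30) in L1236, and 1 of JAK2 (1.05) in L428.

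Untreated L1236 and untreated L428 already differed at most of these genes. Of the 25 probe sets 15 of 7 genes were called, 8 higher and 7 lower in L1236, against 21.1% of all probe sets called (11.2% higher and 9.89% lower). JAK1, JAK2 and JAK3 were higher in untreated L1236 and STAT3 and STAT5A lower. JAK2 205842_s_at was 2.1 ± 0.18 higher (adjusted p = 4.39e-05) and 205841_at 1.86 ± 0.24 higher (adjusted p = 4.36e-04). JAK3 227677_at was 1.60 ± 0.20 higher (adjusted p = 3.55e-04). JAK1 was higher at its 3 probe sets above the floor, by 0.84, 1.15 and 0.50 (adjusted p = 6.99e-04, 0.00488 and 0.00248). STAT3 208991_at differed by -2.06 ± 0.13 (adjusted p = 5.06e-06), 208992_s_at by -2.42 ± 0.19 (2.40e-05) and 225289_at by -1.48 ± 0.14 (6.69e-05). STAT5A differed by -2.48 ± 0.39 (adjusted p = 0.00147). STAT6 201332_s_at was higher in untreated L1236 by 1.2 ± 0.32 (adjusted p = 0.0245), and the call was lost in 4 of the 12 fits without 1 array (adjusted p up to 0.0906). TYK2 was lower by a difference of -0.61 ± 0.18 (adjusted p = 0.0402), a call made in 13 of its 23 alternative fits. The other 3 calls lay at dimmer probe sets, JAK2 1562031_at (1.53, adjusted p = 0.0237), STAT3 243213_at (-0.84, 0.0282) and JAK1 239695_at at the floor (-0.24, 0.0282), and were lost in 3, 5 and 4 of the 12 fits without 1 array. Without the array of conflicting label the calls on TYK2 (adjusted p = 0.115), STAT3 243213_at (0.0687) and JAK1 239695_at (0.0528) were lost. No STAT5B probe set was called with all arrays, and 212549_at differed by 0.01 (95% interval -1.02 to 1.03). When the 4 arrays numbered 1 were left out, 15 of the 25 were again called, against 26.8% of all probe sets. STAT5B 1555088_x_at (-0.58, adjusted p = 0.00541) and 205026_at (-0.47, adjusted p = 0.0327) then passed, and STAT3 243213_at (0.0534) and JAK1 239695_at (0.191) did not.

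After 5-Aza-dC, 9 of the 25 probe sets differed between L1236 and L428, 6 higher and 3 lower in L1236, against 21% of all probe sets (11.1% higher and 9.9% lower). This comparison was added after the responses had been seen. JAK2 205841_at differed by 0.15 ± 0.24 (adjusted p = 0.652) and JAK2 205842_s_at by 0.60 ± 0.18 (adjusted p = 0.0484), a call made in 8 of 23 alternative fits and lost with the replicate block (0.0722) and without the array of conflicting label (0.0663). STAT5A differed by -0.40 ± 0.39 (adjusted p = 0.470). STAT3 208991_at still differed, by -0.75 ± 0.13 (adjusted p = 0.00281), and 225289_at by -1.24 ± 0.14 (adjusted p = 2.14e-04). JAK1 201648_at (1.01) and 1552610_a_at (1.24) and JAK3 227677_at (1.09) were higher in L1236. No STAT5B probe set was called with all arrays, and the 4 above the floor were called higher in treated L1236 without the arrays numbered 1 (0.42 to 1.93). In that fit 15 of the 25 were called, also JAK1 1552611_a_at (0.81, adjusted p = 0.0494) and STAT5B 1555086_at at the floor, against 28.7% of all probe sets. Both STAT6 probe sets were called, with 201332_s_at 2.22 ± 0.32 higher in L1236 (adjusted p = 9.04e-04) and 201331_s_at 0.73 ± 0.16 higher (adjusted p = 0.0108). Of the 15 probe sets called between the untreated lines, 12 (80%) had a smaller difference after 5-Aza-dC, against 69.1% of the 11508 called over all probe sets. The treated and untreated comparisons between lines share no arrays, but each shares its arrays with the responses.

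**Figure D4:**
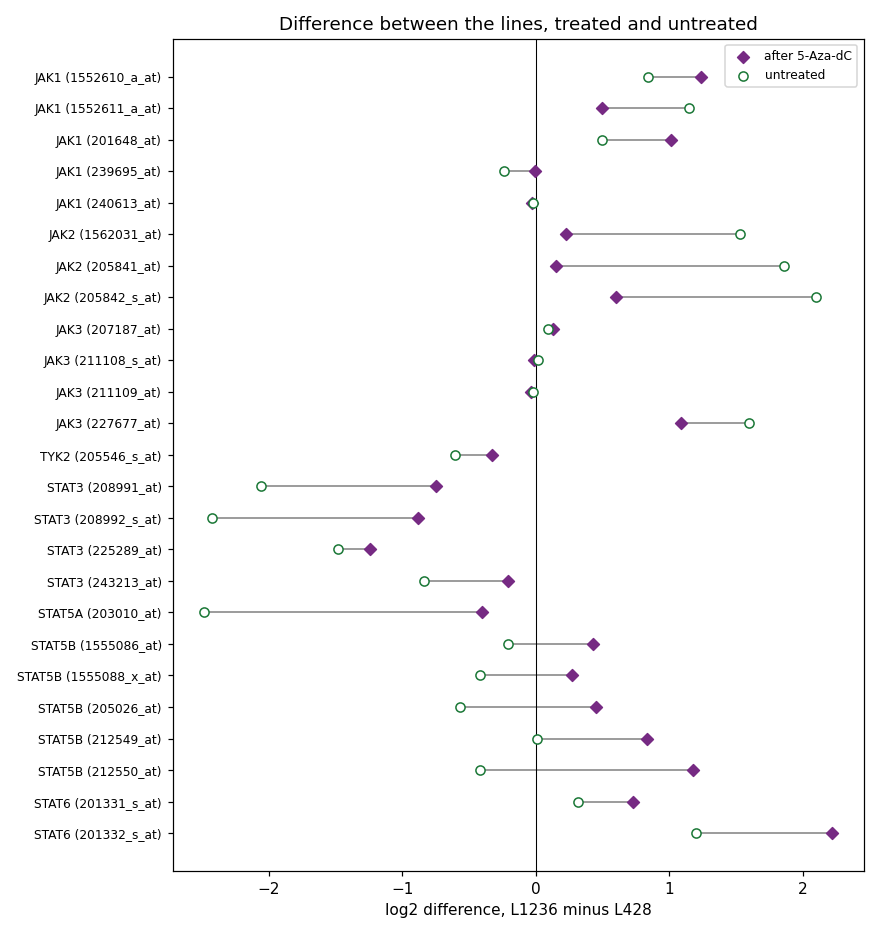
Log2 difference of L1236 minus L428 for all 25 probe sets, after 5-Aza-dC (filled diamonds) and untreated (open circles). STAT5A lies at -0.40 after 5-Aza-dC and -2.48 untreated, and JAK2 205841_at at 0.15 and 1.86, while STAT6 201332_s_at lies at 2.22 and 1.2.

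For JAK2, STAT3 and STAT5A, the genes with the most similar pattern over the 12 arrays were ranked by Pearson's r among 19774 other genes, each at its brightest probe set. The 12 arrays form 4 groups, so these values describe a shared order of groups. JAK2 205842_s_at was closest to PIGN (r = 0.989), ZFP82 (0.987) and TEX14 (0.982). STAT3 208991_at was closest to MGLL (0.996), C4orf54 (0.991) and ACSL6 (0.991). STAT5A was closest to BCL2A1 (0.982), TTC39A (0.982) and PRKCZ (0.981).

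The rest of the pathway was read from 4 lists, with 1 probe set per gene, the one with the highest mean. SOCS1, SOCS2, SOCS3 and CISH stand in both the target and the inhibitor list, and USP18 in both the inhibitor and the STAT2-IRF9 list. A call on such a gene counts in both of its lists. Over all 19775 genes read this way, 7.41% were called higher and 4.99% lower in L1236, and 2.84% higher and 1.02% lower in L428. Of 19 measured target genes of STAT3, STAT5 and STAT6, 8 rose and none fell in L1236 (median 0.80), and 1 rose and none fell in L428 (median 0.56). In the interaction 1 of the 19 was called, CCL17, against 2.13% of all genes higher (list median 0.16). CCL17, a chemokine that STAT6 drives and Hodgkin cells secrete, averaged 14.90 ± 0.11 in L1236 after 5-Aza-dC and 11.90 ± 0.03 in untreated L1236 (SD, n = 3 each). It rose by 3.01 (adjusted p = 4.75e-05), more than in L428 by an interaction of 2.29 (adjusted p = 0.00459). In L428, CCL17 averaged 14.54 after 5-Aza-dC and already 13.83 untreated (0.71, adjusted p = 0.110). Whether a limit of the signal at such high levels kept the L428 rise small was not tested. JUNB, an AP-1 subunit, rose by 2.16 in L1236 (adjusted p = 0.00994), the kinase PIM1 by 1.41 (0.0160) and the transcription factor GATA3 by 0.80 (0.0131). In L428 the called gene was SOCS2, a feedback inhibitor of cytokine receptors, which rose by 1.32 (adjusted p = 0.00938). Without the 4 arrays numbered 1, 13 of the 19 rose and 1 fell in L1236, and 10 rose in L428, while 15.6% and 13% of all genes rose and 16.5% and 12.9% fell. Without the array of conflicting label 5 of the 19 rose in L1236.

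Of 18 inhibitors and phosphatases of the pathway, 1 rose and 1 fell in L1236 (median -0.05), and 2 rose in L428 (median -0.16). In L1236, SOCS3, which blocks JAKs at the receptor, rose by 1.65 (adjusted p = 0.0227). PTPRC (CD45), a phosphatase of blood cells, averaged 9.60 ± 1.17 after 5-Aza-dC and 12.04 ± 0.19 in untreated L1236, and fell by 2.44 (adjusted p = 0.0291). In L428, SOCS2 and USP18 rose, the second by 3.61 (adjusted p = 5.23e-04). USP18 restrains the interferon receptor, and its response differed between the lines (interaction -2.85, adjusted p = 0.0112). With those 4 arrays left out the counts were 4 higher and 7 lower in L1236 and 4 higher and 6 lower in L428, while 15.6% and 13% of all genes rose and 16.5% and 12.9% fell. Without the array of conflicting label neither SOCS3 (adjusted p = 0.0609) nor PTPRC (0.0807) was called in L1236.

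Of 26 receptor chains that bind JAKs, 6 rose and 1 fell in L1236 (median 0.04), and 1 rose in L428 (median 0.08). IL2RA, the alpha chain of the interleukin 2 receptor, averaged 9.25 ± 1.17 in L1236 after 5-Aza-dC and 4.52 ± 0.64 in untreated L1236, and rose by 4.73 (adjusted p = 0.0121). IL15RA rose by 1.47 (adjusted p = 0.00875), IL5RA by 1.22 (0.0180) and the interferon gamma receptor chain IFNGR2 by 0.81 (0.0306). The L428 call was IL12RB1, a TYK2-binding chain, which rose by 0.76 there (adjusted p = 0.0297). IL12RB1 was also the chain that fell in L1236, by 0.58 (adjusted p = 0.0409), and its interaction was -1.34 (adjusted p = 0.0133). Leaving out the arrays numbered 1 gave 9 that rose and 4 that fell in L1236, and 7 that rose and 4 that fell in L428, beside the same shares of all genes. Without the array of conflicting label 4 rose and none fell in L1236, and IL12RB1 was called in neither L1236 (adjusted p = 0.0945) nor L428 (0.0502).

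The genes of the STAT2-IRF9 complex and its targets carry the response to type I interferon, in which TYK2 and JAK1 act at the receptor. All 16 rose in L428 (median 4.77) and 4 of 16 rose in L1236 (median 1.54), while no JAK1 or TYK2 probe set was called in either line with all arrays. In L428, IFIT1 rose by 6.48 (adjusted p = 2.86e-04), OAS2 by 5.93 (1.70e-04) and IFI44 by 5.20 (6.93e-04). In L1236, IFI27 rose by 6.92 (adjusted p = 0.00400) above the floor at 2.44 in untreated L1236, so the size of that rise is uncertain. OAS3 rose there by 3.01 (0.00236), MX1 by 2.92 (0.0112) and IRF7 by 2.75 (0.0106). The interaction was called lower in L1236 for 6 of the 16, against 1.46% of all genes, among them IFIT1 (-5.04, adjusted p = 0.00697) and OAS2 (-4.87, adjusted p = 0.00323). Without the 4 arrays numbered 1, all 16 rose in both lines and the interaction was called lower for 15, while 10.7% of all genes were. Without the array of conflicting label it was called lower for 5.

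**Figure D5:**
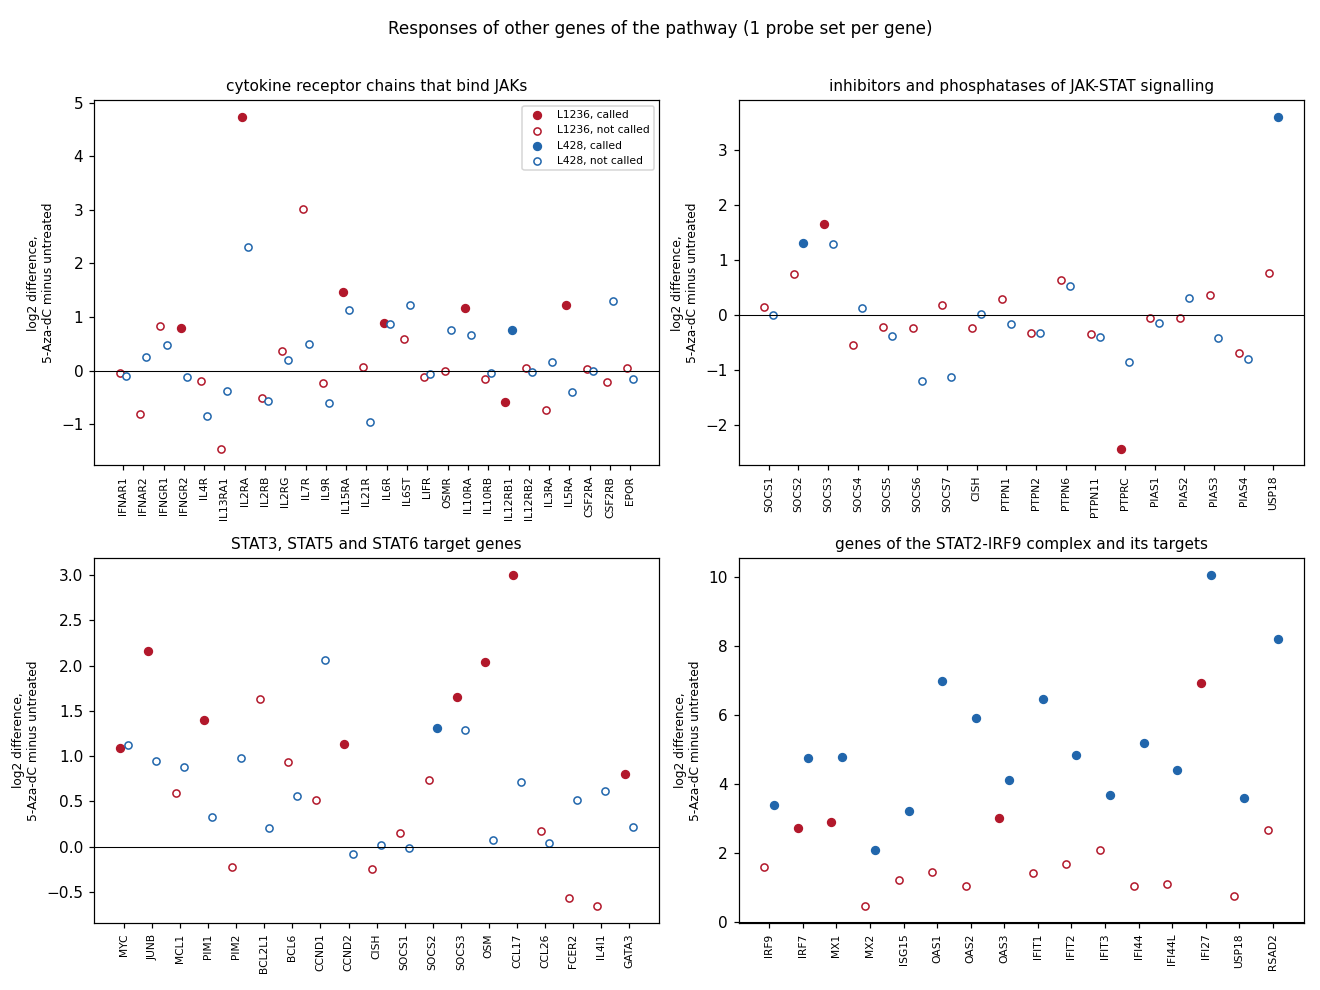
Log2 difference of 5-Aza-dC minus untreated in L1236 (red) and L428 (blue) for the genes of the 4 pathway lists, with filled points where the adjusted p was under 0.05. All 16 genes of the STAT2-IRF9 list are filled in L428 and 4 in L1236, while 8 of the 19 STAT3, STAT5 and STAT6 targets are filled in L1236 and 1 in L428.

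Between the untreated lines the receptor chain CSF2RB, the shared subunit of the interleukin 3 and 5 receptors, was 8.04 higher in L1236 (adjusted p = 1.2e-06), with 11.38 ± 0.15 in untreated L1236 and 3.34 ± 0.70 in untreated L428. The L428 level lies near the floor, so the size of that difference is uncertain. IL6R was 2.34 higher in L1236 (adjusted p = 4.63e-05), while IFNGR1 (-2.48, adjusted p = 6.27e-05) and IL3RA (-2.47, adjusted p = 4.03e-05) were lower. Among the 26 receptor chains, 9 were higher and 5 lower in untreated L1236, against 14.5% and 12.7% of all genes. Among the 19 STAT targets 6 were higher and 4 lower. In the STAT2-IRF9 list none of 16 was higher and 2 were lower. Of the 18 inhibitors, 9 were higher and 1 lower in untreated L1236, against 14.5% and 12.7% of all genes, including PTPN6, a phosphatase that acts on JAKs, by 3.21 (adjusted p = 7.74e-06).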

How the data were processed

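The deposited table holds 1 log2 signal per probe set and array, which the authors obtained by RMA (robust multichip average), per the submitters' processing notes. Its version is not given in the sources used here, nor is any further scaling. Identifiers of a 3′ array were used as the table gives them, although the design describes a whole-transcript type. Of 54675 probe sets, 62 controls were left out. The annotation gave 41091 of the other 54613 probe sets 1 symbol, 1801 several and 11783 none.

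limma 3.58.1 in R 4.3.3 was fitted once to all 12 arrays, with 4 group means and empirical Bayes moderation. P-values are two-sided and adjusted by Benjamini-Hochberg over all 54613 probe sets, also for the probe sets of the 4 lists, and a call is an adjusted p under 0.05. The number of arrays and the spread within groups limit the precision. All 25 member probe sets are named, and of each list at most 4 called genes per comparison, those with the smallest adjusted p. For each JAK or STAT gene called in a line at its brightest probe set, the 3 genes most correlated with it are named. IL12RB1 in L1236 was chosen after its values were seen. Members, lists and tests were chosen with earlier results of these data known. A simulation drew all 12 arrays from a single mean per probe set with independent noise and raised 200 of 54613 probe sets in treated L1236. There 47 of 100 changes of 1 log2 unit and 81 of 100 of 2 units were recovered, with 7 false calls. It held far fewer changes than the calls in the data and no outlying or correlated arrays. These counts therefore do not give the recovery or false calls of the fit to the data.

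Replicate numbers follow the order of the samples. The fit behind the reported values has no pairing. Deviations of same-numbered arrays correlated at 0.154 to 0.260 within L428 and 0.223 to 0.402 between the treated lines, so for those comparisons a value with the replicate number as a block is given where it changes a call. They correlated at 0.0118 to 0.103 within L1236 and 0.0813 to 0.292 between the untreated lines. Alternatives were leaving out arrays, a replicate block, other normalizations, a filter on dim probe sets, 1 probe set per gene, array weights, another variance model and only the groups compared. The counts of the 4 lists without the arrays numbered 1 and without the array of conflicting label were added after seeing the data.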

Additional observations from a re-analysis of the deposited data

Results flagged for a closer look

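With all arrays, the response to 5-Aza-dC differed between the lines, by the test of the interaction itself, at 4 probe sets of 2 genes. STAT3 208991_at (1.31, adjusted p = 0.00817) and STAT3 208992_s_at (1.54, adjusted p = 0.0246) responded more in L1236. JAK2 205842_s_at (-1.49, adjusted p = 0.0226) and JAK2 205841_at (-1.71, adjusted p = 0.0350) had negative differences in L1236, not called there (-0.45 and -0.75), and positive ones in L428 (1.05, called, and 0.96, not called). Both JAK2 calls were lost in 9 of the 12 fits without 1 array, and the STAT3 208992_s_at call in 8. Without the array of conflicting label, neither JAK2 probe set was called (adjusted p = 0.0501 and 0.0721). The STAT3 208991_at call was kept in all 12, while STAT3 225289_at was not called with all arrays (0.24, adjusted p = 0.783). Outliers within a group were not tested, since each group has 3 arrays.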

How the results depend on the processing

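No called difference of the 25 probe sets changed sign under any alternative. Over 2740 comparisons of a single probe set with an alternative, 2563 kept the outcome, 84 lost a call and 93 gained one. Kept outcomes include probe sets without a call that stayed without one, so they do not measure how stable the calls were. All 84 losses fall among the called differences. These held in from 8 of 23 alternative fits, for JAK2 205842_s_at between the treated lines, to all 23, as for STAT3 208991_at in L1236. Leaving out each array gave 2502 to 8725 calls over all probe sets in L1236 (3 to 7 of the 25), 717 to 6091 in L428 (0 to 2) and 733 to 3588 in the interaction (1 to 7), against 4927, 1647 and 1403 with all arrays; between the untreated lines 11 to 15 of the 25 were called. Treated replicate 1 gave the highest count in each line when left out. Without the 4 arrays numbered 1 the calls were 12713 in L1236 (10 of the 25), 9956 in L428 (6) and 7816 in the interaction (12). The replicate block gave 2 of the 25 in L428 and, in L1236, 5 calls, with JAK2 205841_at added (adjusted p = 0.0321); it also ended the TYK2 call between the untreated lines (0.0705). With 1 probe set per gene there were 2955 calls in L1236 (2 of the 8 genes), 920 in L428, 914 in the interaction and 5699 between the untreated lines (6 of the 8 genes), where fewer features were tested. Median centring gave 13111 calls in L1236 (7 of the 25, those gained lying at the floor). Without dim probe sets L428 had 2581 calls (2 of 20). Array weights gave 23942 in L1236 (13), 10934 in L428 (9) and 8098 in the interaction (13). Only the 6 arrays compared gave 3084 in L1236 (2) and 244 in L428 (0). The cause of these changes was not tested. With 3 arrays a group and no detection calls, differences near the floor were not resolved.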
